A study of Mus musculus with 14 samples.

Results

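The protein disulfide isomerase genes described here were the 10 genes P4hb, Pdia3, Pdia4, Pdia5, Pdia6, Txndc5, Erp29, Erp44, Tmx1 and Txndc11, chosen by symbol among the 24421 genes of the deposited count table. All 10 were found, and all 10 were among the 14897 genes with enough counts to be tested. Their mRNA was measured by RNA sequencing of the hippocampus in 7 naive male mice labelled LPAR2-/- and 7 naive male wild-type (WT) mice. The labels and the methods give the tissue as hippocampus, while the study's results text speaks of the dentate gyrus, a region of it, so the extent of the dissected tissue is uncertain.

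LPAR2 is a receptor for lysophosphatidic acid, a signalling lipid that acts at glutamatergic synapses, and the study asked how the hippocampal transcriptome differs when the receptor gene is disrupted. The strain of both genotypes is labelled 129.C57Bl6. According to the methods, the knockout mice lack the second part of exon 2 of Lpar2 and were kept as homozygotes in a colony bred beside, not together with, the control colony of mixed C57BL/6 and 129/SvJ background. Genotype and colony can therefore not be told apart. Mice were 10 to 12 weeks old by their labels, whereas the series as a whole is described as middle-aged to aged, so the age is uncertain. No mouse received a treatment.

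Protein disulfide isomerases are enzymes of the endoplasmic reticulum (ER) with thioredoxin-like domains. They form, break and rearrange the disulfide bonds of secreted and membrane proteins while these fold, and are re-oxidised by ER oxidases such as the Ero1 proteins. In neurons, such clients include receptors, adhesion molecules and secreted factors. Several of the isomerase genes are classical targets of the unfolded protein response, in which the transcription factors ATF6 and XBP1 raise the transcription of ER chaperones through ER stress response elements in their promoters.

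The 14 libraries held 15434620 to 23258949 assigned reads. Levels are given as CPM (counts scaled to a common library size, scaled with TMM factors) and differences as log2 fold changes, LPAR2-/- minus WT, from edgeR's quasi-likelihood test with Benjamini-Hochberg adjustment over all 14897 genes. Lpar2 itself was higher in the mice labelled LPAR2-/- (9.55 ± 1.41 CPM, SD, n = 7) than in WT (2.36 ± 0.676 CPM, n = 7). Because the reads were counted over the whole gene, of which the allele lacks only a stretch, this value does not check the deletion, and genotypes are those of the labels. Neuronal, dentate granule cell, astrocyte and microglial marker sums overlapped between genotypes, with the 8 neuronal markers together at 13085 to 15577 CPM in LPAR2-/- and 13034 to 15032 CPM in WT. Single mice stood apart in some marker lists. The 4 CA1 markers summed to 331 CPM in WT mouse 2 against 83.8 to 169 CPM in the other 13 mice. The 7 choroid plexus markers summed to 288 CPM in LPAR2-/- mouse 2 against 26.8 to 53.4 CPM in the other 6 LPAR2-/- mice and 29.0 to 34.3 CPM in WT. The 6 oligodendrocyte markers reached 3878 CPM in LPAR2-/- mouse 3, where all others lay between 969 and 2029 CPM. The 8 meningeal fibroblast markers had a median of 178 CPM in LPAR2-/- (70.7 to 308) and 91.3 CPM in WT (57.9 to 216), and of these Lum rose. In bulk tissue, fewer cells of a type and less RNA per cell cannot be told apart.

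Of the 10 isomerases, Pdia3, Pdia4 and Pdia6 fell in the mice labelled LPAR2-/-, none rose and 7 did not pass the test. In mean CPM, Pdia3 fell by 20.9%, Pdia4 fell by 32.2% and Pdia6 fell by 33.1%. Over all genes tested, 3.46% were called lower, 3.32% higher and 6.77% in either direction. The log2 fold change was below 0 for 9 of the 10 isomerases, as for 7284 of the 14897 genes tested. The median of the 10 was only −0.04, against 0.00 for all genes tested. The 7 members that did not pass lay between −0.14 and 0.09. At an unadjusted p under 0.05, Erp44 (0.0264) was lower and Txndc5 (0.0244) higher as well. The share of all genes below that unadjusted threshold was not counted, here or for the lists below. DESeq2 called the same 3 genes as edgeR, while with mouse number as a block only Pdia6 passed. The genotypes overlapped for every isomerase. Over all genes tested, 1.77% had groups that did not overlap, so none among 10 is near that share.

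**Figure D1:**
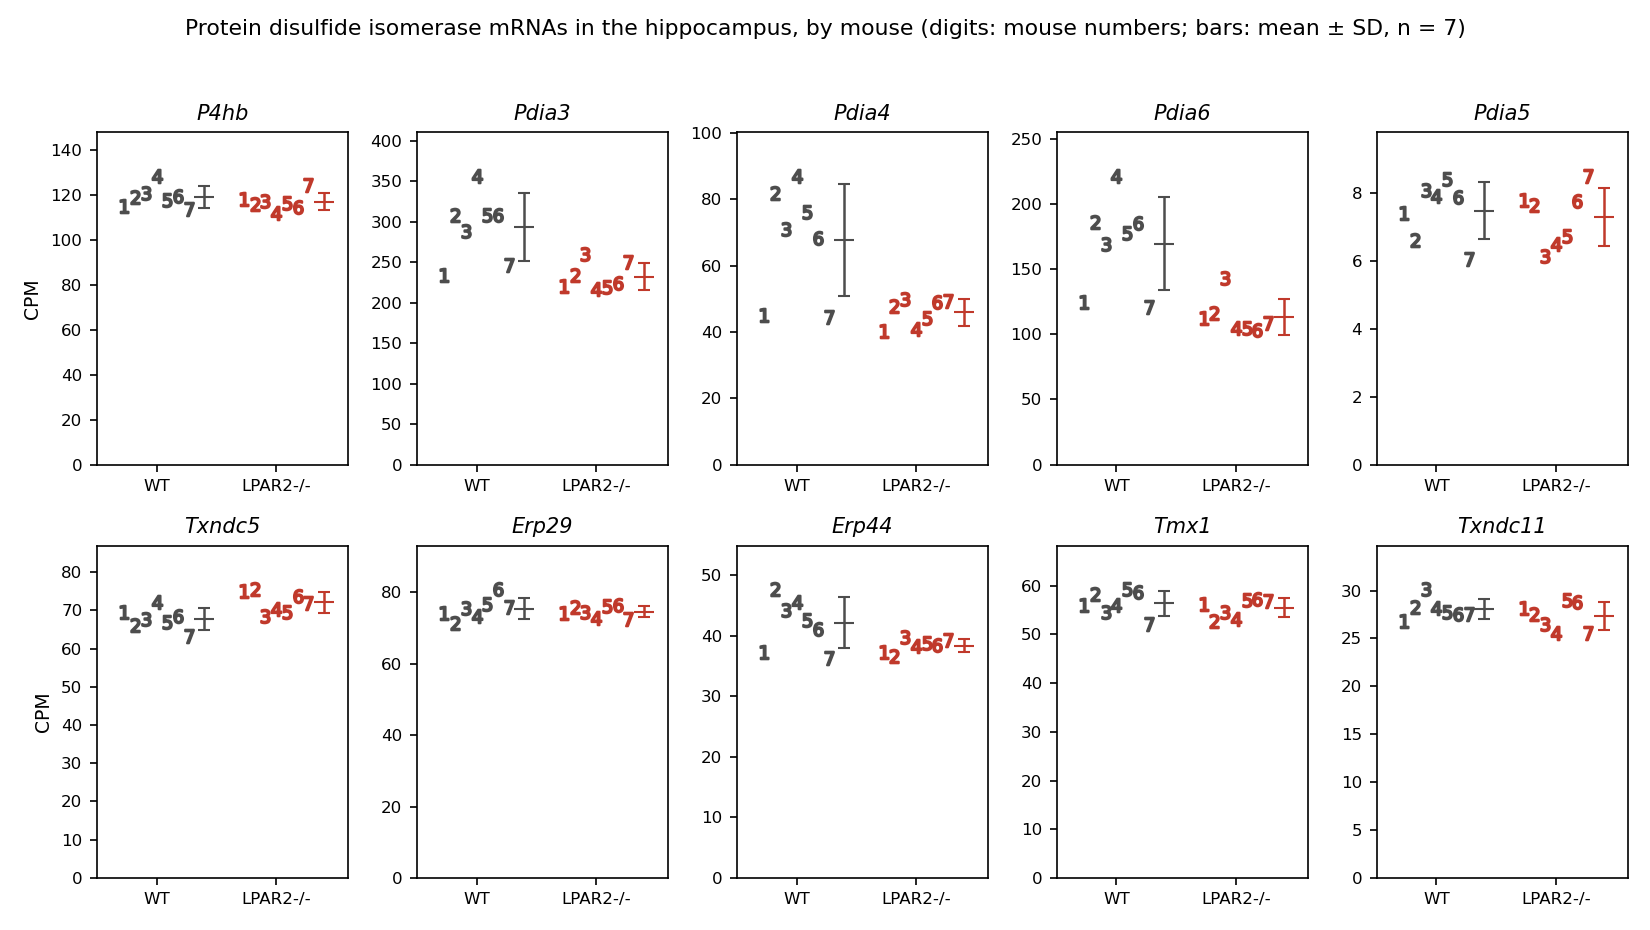
CPM of the 10 isomerase mRNAs (vertical axes, each from 0) in WT and LPAR2-/- mice. Each digit is 1 mouse and shows its number, and the bar beside each group is the mean ± SD (n = 7). For Pdia3, Pdia4, Pdia6 and Erp44, WT mice 2 to 6 lie above every LPAR2-/- mouse, and WT mice 1 and 7 do not.

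The 3 genes that fell are best seen beside P4hb, the founding member of the family, which did not pass the test. The 200 bases before the RefSeq start of each (GRCm38.p6, 5′ to 3′ on the gene's strand) are shown because genes of the unfolded protein response are known to be driven through this window. Capitals mark the fixed letters of an ER stress response element, which is CCAAT and, after 9 free bases, CCACG, on either strand, with up to 1 other base allowed in the CCACG end. The windows lie at chr2:121413702-121413901 (Pdia3, plus strand), chr6:47813513-47813712 (Pdia4, minus strand), chr12:17266389-17266588 (Pdia6, plus strand) and chr11:120573254-120573453 (P4hb, minus strand).
Pdia3: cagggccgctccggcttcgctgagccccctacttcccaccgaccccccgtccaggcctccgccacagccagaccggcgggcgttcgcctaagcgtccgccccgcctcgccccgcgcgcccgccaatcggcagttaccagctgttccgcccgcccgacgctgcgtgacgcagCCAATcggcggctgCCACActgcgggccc
Pdia4: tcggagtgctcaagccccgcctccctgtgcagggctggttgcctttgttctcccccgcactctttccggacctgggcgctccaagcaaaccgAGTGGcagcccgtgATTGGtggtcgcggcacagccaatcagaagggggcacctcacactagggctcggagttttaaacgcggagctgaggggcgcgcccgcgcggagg
Pdia6: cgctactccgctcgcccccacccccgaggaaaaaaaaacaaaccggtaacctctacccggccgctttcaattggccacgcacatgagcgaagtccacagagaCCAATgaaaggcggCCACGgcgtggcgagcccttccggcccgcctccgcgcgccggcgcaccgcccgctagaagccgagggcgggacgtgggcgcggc
P4hb: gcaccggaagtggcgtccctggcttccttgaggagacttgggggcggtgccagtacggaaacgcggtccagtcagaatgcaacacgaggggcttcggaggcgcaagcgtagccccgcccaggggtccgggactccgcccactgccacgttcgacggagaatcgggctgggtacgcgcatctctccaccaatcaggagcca

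The full element was found once among the isomerases, in Pdia6, with its first base 98 bases before the start. It occurs in 39 of the 32851 promoter windows in the RefSeq table (0.119%, both strands, 250 bases before to 50 after each start). The form with 1 free letter in CCACG was searched after the sequences had been seen. With it, 4 of the 9 isomerases that have a promoter entry held a match, as did 1.14% of all genes with an entry: Pdia3 at −29, Pdia4 at −108 on the opposite strand, Pdia6 at −98 and Erp44 at −172. Since this form was chosen on the sequences of the genes that fell, nothing is read from the matches of Pdia3 and Pdia4. P4hb, Pdia5, Txndc5, Tmx1 and Txndc11 held no match in this window, and the start used for P4hb lies upstream of the first exon in the count table. A match is a description of letters, and no binding was measured. The Erp44 match, at chr4:48279737-48279767 on the minus strand, is shown to complete the 4.
Erp44: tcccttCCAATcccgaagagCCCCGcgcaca

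Pdia3 encodes ERp57, which works on glycoproteins held by calnexin and calreticulin and is a part of the peptide-loading complex of MHC class I. The gene lies at chr2:121413902-121438686 (mm10, plus strand) and was counted over 13 exons. Its level was 217 CPM in the lowest, 224 in the median and 260 in the highest of the 7 LPAR2-/- mice, and 234, 309 and 357 CPM in WT. WT mouse 1 at 234 CPM and WT mouse 7 at 247 CPM lay inside the LPAR2-/- range, and the other 5 WT mice lay above it. The means were 232 ± 16.8 CPM and 293 ± 41.9 CPM (SD, n = 7 each), a log2 fold change of −0.34 (SE 0.080, edgeR adjusted p = 0.0207). Pdia3 passed the test in all 14 fits that left out 1 mouse. It did not pass with the summed choroid plexus markers as a covariate (−0.34, edgeR adjusted p = 0.0510) or with mouse number as a block (−0.33, edgeR adjusted p = 0.0589).

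Pdia4 encodes ERp72, a relative with an additional thioredoxin-like domain that binds a broad range of unfolded clients. The gene lies at chr6:47796141-47813512 (minus strand) and was counted over 10 exons. Its level ran from 40.4 CPM over a median of 47.9 to 49.98 CPM in LPAR2-/- and from 44.4 CPM over 71.0 to 87.2 CPM in WT. WT mouse 1 (45.2 CPM) and WT mouse 7 (44.4 CPM) fell in the middle of the LPAR2-/- values, and the next WT mouse stood at 68.5 CPM. With 46.0 ± 4.11 against 67.8 ± 16.9 CPM, the log2 fold change was −0.56 (SE 0.14, edgeR adjusted p = 0.0298). This was the least stable of the 3 calls. It was lost in 8 of the 14 fits without 1 mouse (without LPAR2-/- mouse 1, 4 or 5 or WT mouse 2, 3, 4, 5 or 6), with edgeR adjusted p between 0.0547 and 0.0691, and the fold change stayed between −0.64 and −0.49 over the 14 fits. Among these mice is WT mouse 2, with the high CA1 markers, without which it was −0.51 (edgeR adjusted p = 0.0691).

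Pdia6 encodes P5, an isomerase that binds the ER chaperone BiP. The gene lies at chr12:17266595-17284770 (plus strand) and was counted over 13 exons. LPAR2-/- mice ranged from 103 CPM over a median of 109 to 143 CPM and WT mice from 121 CPM over 177 to 222 CPM. LPAR2-/- mouse 3, at 143 CPM, was the one mouse of its genotype that reached the values of WT mice 1 (125 CPM) and 7 (121 CPM), and the next LPAR2-/- mouse stood at 116 CPM. The means of 113 ± 14.1 and 169 ± 35.7 CPM gave a log2 fold change of −0.58 (SE 0.12, edgeR adjusted p = 0.0146), and Pdia6 passed the test in all 14 fits without 1 mouse. Without LPAR2-/- mouse 3, the mouse with the highest oligodendrocyte markers, it was −0.65 (edgeR adjusted p = 0.00744).

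P4hb, the isomerase that also serves as the beta subunit of prolyl 4-hydroxylase and as a subunit of the microsomal triglyceride transfer protein, differed between genotypes by less than the spread of the mice. The gene (chr11:120560304-120572936, minus strand) stood at 112 to 124 CPM with a median of 116 in LPAR2-/- and at 114 to 128 CPM with a median of 119 in WT. The log2 fold change was −0.03 (SE 0.034, edgeR adjusted p = 0.660). WT mouse 4, which was the highest of all mice for Pdia3, Pdia4 and Pdia6, was also the highest for P4hb.

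Among the other luminal enzymes, Pdia5, known as PDIR, was the least abundant, at 6.15 to 8.51 CPM in LPAR2-/- and 6.07 to 8.41 CPM in WT. Its log2 fold change was −0.04 (SE 0.092, edgeR adjusted p = 0.844). Txndc5 encodes ERp46, an isomerase with a role in the oxidation of client proteins, and was the only member with a value above 0. It stood at 68.6 to 75.6 CPM in LPAR2-/- and 63.2 to 72.3 CPM in WT, a log2 fold change of 0.09 (SE 0.036, edgeR adjusted p = 0.151). Erp29, a relative without a redox-active site that serves as a folding factor, varied little between mice. It ranged from 72.4 to 76.3 CPM in LPAR2-/- and from 71.5 to 80.9 CPM in WT, a log2 fold change of −0.02 (SE 0.032, edgeR adjusted p = 0.822).

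Erp44 cycles between the ER and the Golgi, retains Ero1 oxidases and incompletely assembled proteins, and resembled the 3 genes that fell in the order of the mice but not in size. Its level was 36.7 to 39.8 CPM with a median of 38.4 in LPAR2-/- and 36.3 to 47.7 CPM with a median of 42.6 in WT. WT mice 1 (37.2 CPM) and 7 (36.3 CPM) were again the lowest of their genotype and the other 5 WT mice lay above all LPAR2-/- mice, the next at 41.1 CPM. The log2 fold change of −0.14 (SE 0.056, edgeR adjusted p = 0.158) did not pass the test. The membrane-anchored Tmx1 (52.9 to 57.3 CPM in LPAR2-/-, 52.1 to 59.3 CPM in WT) had a log2 fold change of −0.03 (SE 0.037, edgeR adjusted p = 0.739). Txndc11, a membrane protein linked to ER-associated degradation, was at 25.5 to 29.0 CPM in LPAR2-/- and 26.8 to 30.2 CPM in WT, with a log2 fold change of −0.04 (SE 0.043, edgeR adjusted p = 0.630).

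Each member was also expressed relative to P4hb in the same mouse. The genotypes were compared with limma over all genes in the same way, a test added after the data had been seen. P4hb was already known to have a log2 fold change near 0 (−0.03). The differences therefore largely repeat those above and are no separate support. In that scale 563 of 14896 genes (all but P4hb) passed. Pdia6 lay 0.53 below P4hb's own change on the log2 scale (−0.53, 95% interval −0.78 to −0.29, limma adjusted p = 0.0206). Pdia3 differed by −0.30 (−0.45 to −0.15, limma adjusted p = 0.0303). Pdia4 differed by −0.49 (−0.78 to −0.21, limma adjusted p = 0.0552) and missed the threshold. For the remaining 6 members the differences ran from −0.10 for Erp44 (−0.21 to 0.01) to 0.12 for Txndc5 (0.03 to 0.20), and none passed the test, the lowest limma adjusted p being 0.121.

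Levels between genes were compared as TPM, in which counts are divided by counted exon length before scaling to a common total. In WT mice Pdia3 was the most abundant isomerase mRNA (345 ± 52.7 TPM, SD, n = 7), followed by Pdia6 (248 ± 54.5 TPM), Erp29 (188 ± 6.85 TPM) and P4hb (146 ± 7.23 TPM). Then came Pdia4 (84.95 ± 22.1 TPM), Tmx1 (75.4 ± 3.85 TPM), Txndc5 (66.6 ± 2.90 TPM), Erp44 (49.4 ± 5.51 TPM), Txndc11 (29.3 ± 1.298 TPM) and Pdia5 (12.8 ± 1.46 TPM). The WT ranges of neighbours in this order overlapped between Pdia3 and Pdia6, Pdia6 and Erp29, Pdia4 and Tmx1, and Tmx1 and Txndc5. In LPAR2-/- mice Erp29 (187 ± 3.84 TPM) took the place above Pdia6 (166 ± 19.8 TPM), with ranges that overlapped, and Pdia4 (57.6 ± 4.92 TPM) ranked below Tmx1 and Txndc5, with ranges that did not overlap theirs. The 10 mRNAs summed to 1057 ± 38.5 TPM in LPAR2-/- and 1245 ± 147 TPM in WT. Pdia6 made up 15.6% ± 1.38 of the sum in LPAR2-/- and 19.7% ± 2.14 in WT, and Erp29 17.7% ± 0.791 and 15.3% ± 1.82.

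**Figure D2:**
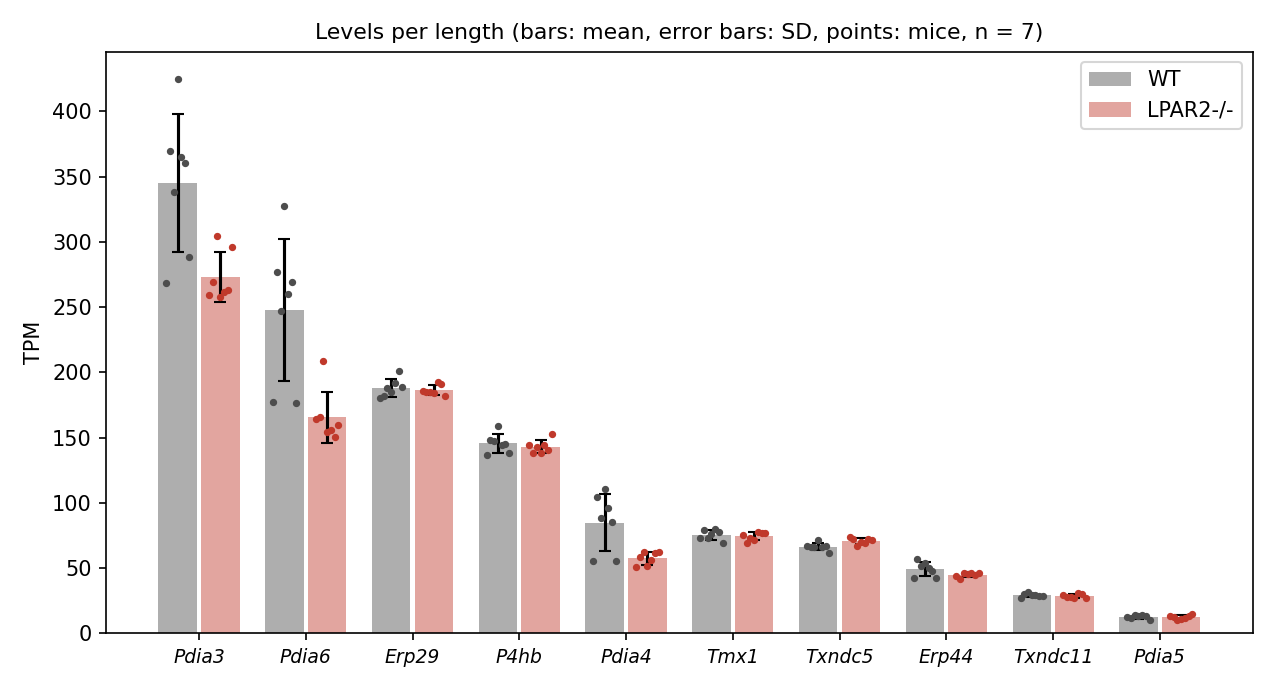
TPM (vertical axis) of the 10 isomerase mRNAs in WT and LPAR2-/- mice, ordered by the WT mean. Bars are means, error bars SD and points single mice (n = 7 each). The bars of Pdia3, Pdia6 and Pdia4 differ most between genotypes, and WT points of these 3 genes spread more than those of the other 7.

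The members also differed in how far mice of 1 genotype spread. In WT the coefficient of variation was 25.0% for Pdia4, 21.1% for Pdia6, 14.3% for Pdia3 and 10.0% for Erp44, against 8.93%, 12.4%, 7.24% and 2.82% in LPAR2-/-. For P4hb it was 4.05% in WT and 3.27% in LPAR2-/-, and for Pdia5, the lowest mRNA, 11.4% and 11.6%. With genotype means removed, log2 CPM of Pdia3 and Pdia6 had a Pearson r of 0.939 over the 14 mice, Pdia3 and Pdia4 of 0.916, Pdia4 and Erp44 of 0.900 and Pdia4 and Pdia6 of 0.873. Erp29 had r between −0.38 and 0.29 with the other 9. These correlations are given as a description. They rest in part on the gap between WT mice 1 and 7 and the other WT mice.

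The 3 genes most like each of them over the 14 mice, by the same measure among all genes tested, were 7 different genes. For Pdia3 they were Hsp90b1 (r = 0.957), which encodes the ER chaperone GRP94, Ahsa1 (0.950), a co-chaperone of HSP90, and Calr (0.947), which encodes calreticulin. For Pdia4 they were Hspa5 (0.970), which encodes BiP, the main ER chaperone, Lrch3 (0.970) and Manf (0.937), which encodes a factor secreted under ER stress. For Pdia6 they were Hyou1 (0.972), a nucleotide exchange factor of BiP, Calr (0.964) and Hsp90b1 (0.955). All of these except Manf (log2 fold change −0.48, edgeR adjusted p = 0.0724) fell in LPAR2-/- mice.

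Hspa5, the gene most like Pdia4, showed the same 2 sets of WT mice. Its level was 223 CPM in the lowest, 241 in the median and 307 in the highest LPAR2-/- mouse, and 260, 426 and 548 CPM in WT. WT mice 7 (260 CPM) and 1 (281 CPM) lay inside the LPAR2-/- range and the next WT mouse stood at 418 CPM. The same WT mice 1 and 7 had the highest WT sums of the 4 CA3 markers (348 and 381 CPM, the other 5 at 200.2 to 266 CPM) and the lowest WT sums of the 6 dentate granule cell markers (1035 and 1081 CPM, the others at 1176 to 1495 CPM). The LPAR2-/- mice lay at 124 to 342 CPM and 995 to 1553 CPM. The part of these regional markers in the isomerase and Hspa5 levels was not tested. The log2 fold change was −0.72 (SE 0.15, edgeR adjusted p = 0.0129). Because the WT mice fell into separate sets, no correlation over all 7 is given for them. Without WT mice 1 and 7, r with Hspa5 was 0.834 for Pdia3, 0.994 for Pdia4, 0.805 for Pdia6 and 0.656 for P4hb, given as a description with no p. Among the 7 LPAR2-/- mice, Pdia3 followed Hspa5 with Pearson r = 0.932 (exact two-sided permutation p = 0.00218, adjusted over 20 relations, 10 for each genotype, 0.0146) and Spearman rho = 0.929 (exact permutation p = 0.00675, adjusted 0.0450). Without mice 2 and 3, the farthest from the Hspa5 median, r was 0.944. Pdia4 had r = 0.767 (exact permutation p = 0.0272, adjusted 0.0680) and rho = 0.857 (exact permutation p = 0.0238, adjusted 0.0794), and r was 0.875 without those mice. Pdia6 had r = 0.885 (exact permutation p = 0.0190, adjusted 0.0544) and rho = 0.643 (exact permutation p = 0.139, adjusted 0.309). Its r dropped to 0.112 without mice 2 and 3, so that relation rests on them. P4hb had r = 0.356 (exact permutation p = 0.387, adjusted 0.553) and rho = 0.321 (exact permutation p = 0.498, adjusted 0.711), with r = 0.851 without those mice.

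**Figure D3:**
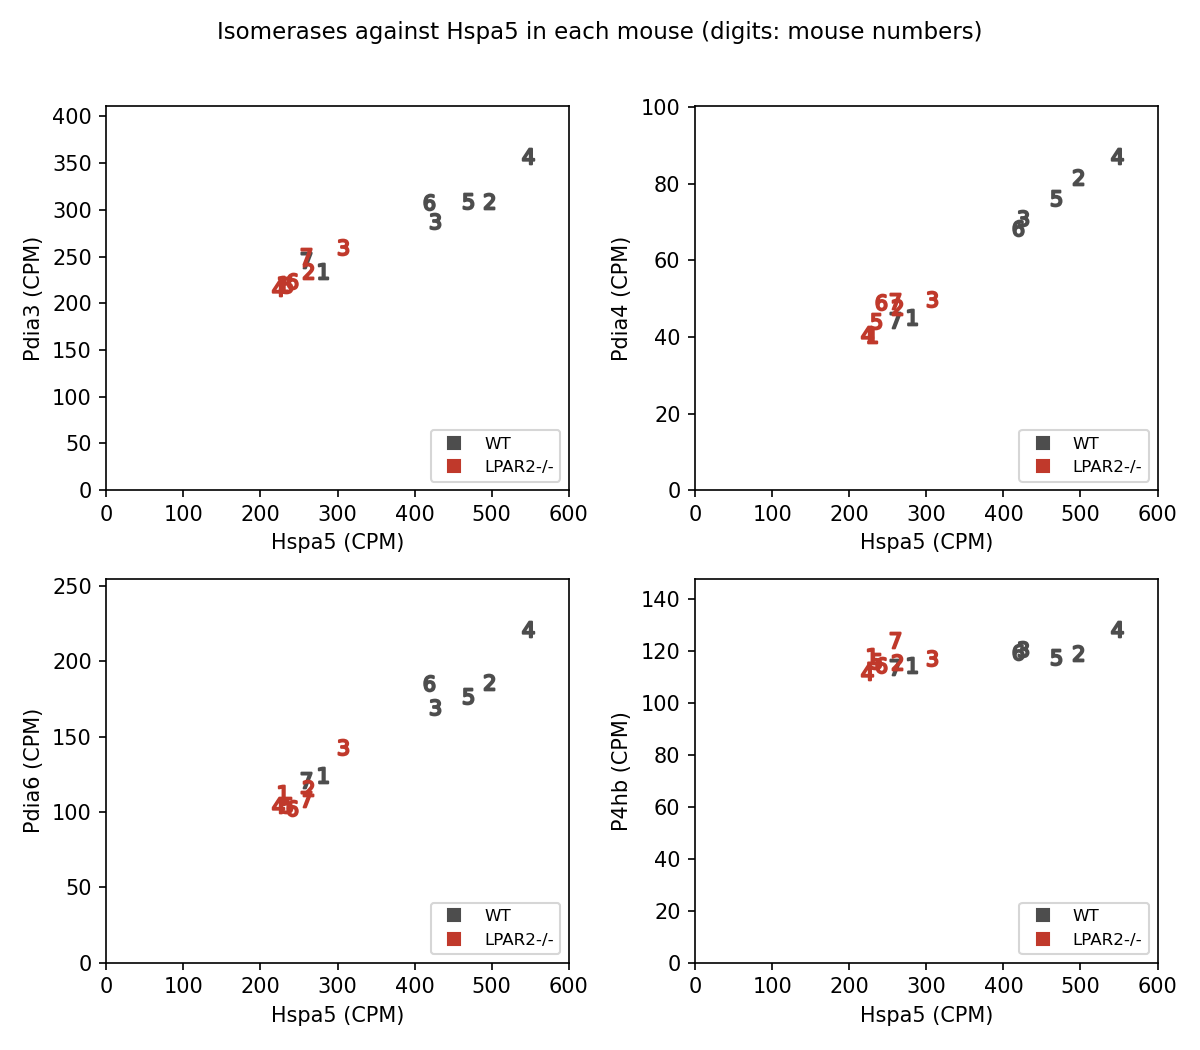
CPM of Pdia3, Pdia4, Pdia6 and P4hb (vertical axes) against CPM of Hspa5 (horizontal axes) in the 14 mice, shown by their numbers and coloured by genotype. WT mice 1 and 7 sit among the LPAR2-/- mice, and WT mice 2 to 6, with Hspa5 at 418 to 548 CPM, sit apart at high Pdia3, Pdia4 and Pdia6, while P4hb stays between 112 and 128 CPM.

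The other genes of the pathway were taken from 5 lists with 60 genes, of which 53 were tested, 11 fell and 2 rose (background 3.46% lower and 3.32% higher). DESeq2 called 14 of them lower and 3 higher, but it also called more of all genes (1388, against 1009 with edgeR). The partners of the isomerases held 4 of 10 genes that fell and none that rose, with a median log2 fold change of −0.10. Tapbp and P4ha3 were higher at an unadjusted p of 0.0185 and 0.0260, and P4ha2 was lower at 0.0144. Calnexin (Canx) and calreticulin (Calr), the lectin chaperones that present glycoproteins to Pdia3, fell by 0.22 (SE 0.048, edgeR adjusted p = 0.0132) and 0.44 (SE 0.10, edgeR adjusted p = 0.0183) on the log2 scale. Uggt1, the folding sensor that returns glycoproteins to them, fell by 0.19 (SE 0.046, edgeR adjusted p = 0.0208). P4ha1, a catalytic alpha subunit of prolyl 4-hydroxylase that pairs with P4hb, fell by 0.41 (SE 0.095, edgeR adjusted p = 0.0206), although P4hb did not pass the test. P4ha1 stood at 62.2 to 78.5 CPM in LPAR2-/- and 72.0 to 111 CPM in WT.

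Genes of the unfolded protein response made up 7 of these 13 calls. Of 23 tested, 7 fell and none rose, 18 had values below 0 (7284 of 14897 over all genes), and the median log2 fold change was −0.20. At an unadjusted p under 0.05, 11 were lower and 0 higher, with no share of all genes counted at that threshold. Besides Hspa5, those that fell were Hsp90b1 (−0.48, edgeR adjusted p = 0.0213), Hyou1 (−0.32, edgeR adjusted p = 0.0204) and the BiP co-chaperone Dnajb11 (−0.31, edgeR adjusted p = 0.0149). Sdf2l1, which works with Dnajb11, had −0.86 (edgeR adjusted p = 0.0220), the transcription factor Xbp1 −0.54 (edgeR adjusted p = 0.0227) and the stress-induced Atf3 −0.82 (edgeR adjusted p = 0.0479). Atf3 is also known as an activity-induced gene of neurons. Its call was lost in 10 of the 14 fits without 1 mouse (all but those without LPAR2-/- mouse 2 or 7 or WT mouse 1 or 7), with edgeR adjusted p up to 0.102, and narrowly with upper quartile scaling, limma or no filter on low counts (adjusted p between 0.0509 and 0.0527). The call of Xbp1 was lost without WT mouse 2 (edgeR adjusted p = 0.0518) or 5 (0.0507), and that of Sdf2l1 without WT mouse 2 (0.0503). Apart from Xbp1, 4 upstream sensors and effectors, picked after their values were seen, did not pass the test: Atf6 0.01, Ern1 (IRE1) 0.07, Eif2ak3 (PERK) −0.04 and Atf4 0.03, with edgeR adjusted p between 0.620 and 0.972.

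Among the oxidants, Qsox1 and Selm rose, none of the 12 tested genes fell, and the median was 0.04. Prdx4 (0.29, edgeR adjusted p = 0.0544) was higher at an unadjusted p of 0.00389, and Ero1lb was lower at an unadjusted p of 0.0345. Qsox1, a sulfhydryl oxidase that makes disulfide bonds without an isomerase, stood at 31.2 to 36.5 CPM in LPAR2-/- and 26.9 to 32.6 CPM in WT (log2 fold change 0.22, SE 0.053, edgeR adjusted p = 0.0224). Selm, the older symbol of selenoprotein M, an ER oxidoreductase, stood at 56.4 to 68.6 and 48.4 to 62.1 CPM (0.22, SE 0.059, edgeR adjusted p = 0.0349). The call of Selm was lost in 9 of the 14 fits without 1 mouse (all but those without LPAR2-/- mouse 3 or 7 or WT mouse 1, 6 or 7), with edgeR adjusted p between 0.0528 and 0.0782, and that of Qsox1 in 3, without LPAR2-/- mouse 1 (0.0516) or WT mouse 2 (0.0527) or 5 (0.0528). Ero1l, the older symbol of Ero1a, the oxidase that recharges P4hb, had −0.06 (SE 0.069, edgeR adjusted p = 0.646). Among other isomerase relatives 6 of 11 genes were tested and none passed, the smallest p belonging to Dnajc10, the reductase ERdj5, with 0.13 (SE 0.048, edgeR adjusted p = 0.105, unadjusted 0.0124). One of these 6 had an unadjusted p under 0.05. Of the KDEL receptors, which return isomerases to the ER, 2 of 3 were tested and neither passed, also at an unadjusted p under 0.05, with Kdelr1 at 0.03 (SE 0.032, edgeR adjusted p = 0.621).

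**Figure D4:**
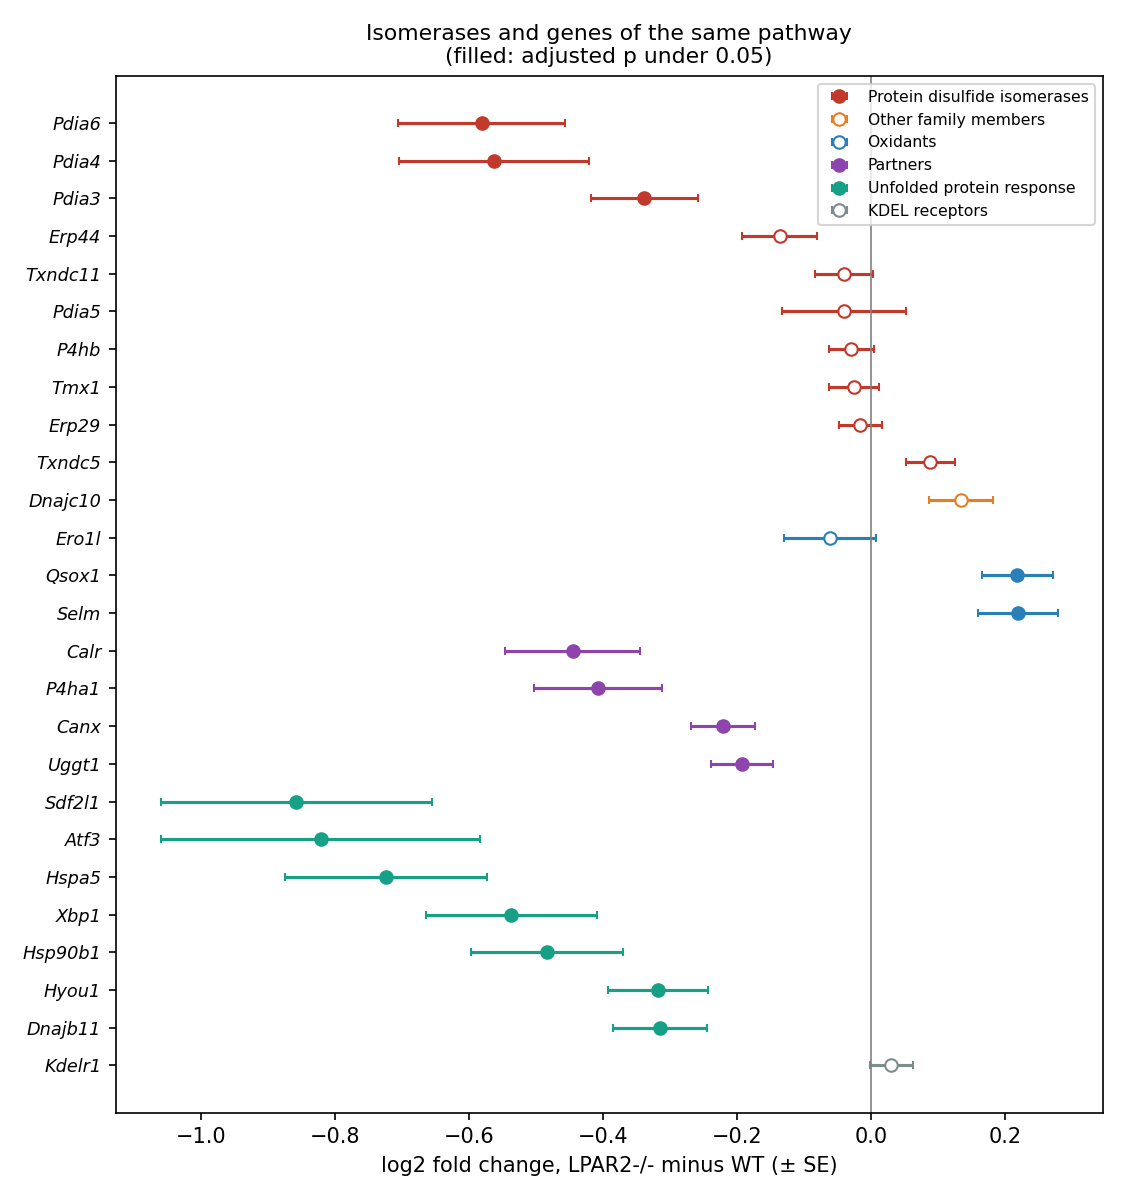
Log2 fold change, LPAR2-/- minus WT, with SE (horizontal axis) for the 10 isomerases and for the genes of the 5 other lists that passed the test, plus Dnajc10, Ero1l and Kdelr1. Filled points have an edgeR adjusted p under 0.05. Pdia6, Pdia4 and Pdia3 lie with the chaperones left of 0, the remaining isomerases near 0, and Qsox1 and Selm right of 0.

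The full ER stress response element, found in Pdia6 alone among the isomerases, was present in 9 of the 53 genes of these lists that have a promoter entry, as in 0.137% of all genes with an entry. The matches of genes that fell are shown in the same way, 31 bases each, because Pdia6 shares its element with them. They lie at chr2:34772019-34772049 (Hspa5), chr8:84847069-84847099 (Calr), chr10:86705632-86705662 and chr10:86705527-86705557 (Hsp90b1), chr11:50325794-50325824 (Canx) and chr12:17266485-17266515 (Pdia6).
Pdia6: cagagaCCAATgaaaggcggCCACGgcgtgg
Hspa5: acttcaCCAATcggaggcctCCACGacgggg
Calr, reverse strand: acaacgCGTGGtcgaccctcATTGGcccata
Hsp90b1: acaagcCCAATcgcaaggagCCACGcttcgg
Hsp90b1, reverse strand: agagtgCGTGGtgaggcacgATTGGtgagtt
Canx: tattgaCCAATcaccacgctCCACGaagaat
Over all genes tested, 19 had the full element in a promoter window. Of these, 5 fell (26.3%, background 3.46%) and none rose, and these were Pdia6, Hspa5, Calr, Canx and Hsp90b1. Creld2, Derl3, Dnajc3, Ero1b and Syvn1 held it too and did not pass the test. The shorter element, ATTGG and CCACG with 1 free base between them, was in no isomerase and in 0.0365% of windows. The XBP1 core TGACGTGG was in Txndc5 and Txndc11 (0.676% of windows) and the bare CCACG, which forms part of each of these motifs on 1 strand, in 7 of 9 isomerases (32.8% of windows). The same count was made for the other motifs. Of 167 tested genes with the form that allows 1 other base, which includes the full element, 13 fell (7.78%) and 4 rose. These 13 include the 5 with the full element, and Pdia3 and Pdia4, on whose sequences the form was chosen. Nothing is therefore read from this share. For the XBP1 core 4 of 120 genes fell (3.33%) and 3 rose, for the bare CCACG 3.66% of 5735 genes fell, and for the shorter element 1 of 8, Dnajb11. These counts are descriptions with no test.

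Because the colonies were bred apart, tested genes within 2 Mb of each isomerase were counted. Between 0 of 18 (Txndc11) and 4 of 34 (Pdia4, 11.8%) of these neighbours were called, with 2 of 62 for Pdia3 and 1 of 12 for Pdia6, against 6.77% of all genes. Around Calr, which lies on chromosome 8 as does Lpar2 (chr8:84842088-84846931 and chr8:69822565-69831102), it was 20 of 71 (28.2%), 11 lower and 9 higher. For Calr the genotype and the strain origin of this chromosome cannot be told apart. With the summed choroid plexus markers as a covariate, added after the data had been seen, Pdia6 still passed (edgeR adjusted p = 0.0387), and Pdia3 (0.0510) and Pdia4 (0.0681) did not, with fold changes of −0.34 and −0.57. Without LPAR2-/- mouse 2, which carried these markers, all 3 passed (edgeR adjusted p between 0.0250 and 0.0480). With the meningeal markers as a covariate all 3 passed (edgeR adjusted p between 0.0333 and 0.0416). Calls of other list genes ended in these fits, with fold changes close to those without a covariate. Beside the meningeal markers Calr had −0.43 (edgeR adjusted p = 0.0517), Hsp90b1 −0.48 (0.0505), Hyou1 −0.32 (0.0510) and Selm 0.23 (0.0797). Beside the choroid plexus markers P4ha1 had −0.41 (edgeR adjusted p = 0.0510), Hyou1 −0.31 (0.0529), Xbp1 −0.54 (0.0565), Uggt1 −0.18 (0.0623) and Selm 0.20 (0.103). Reads shared with other genes could touch Erp29, which overlaps Tmem116 over 14.5% of its counted bases, and Txndc5, which overlaps an antisense gene over 9.85%, both on the opposite strand from the one counted. Overlaps of Pdia4 and Pdia6 covered 0.564% and 2.35%, and Pdia3 and P4hb had none.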

How the data were processed

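Hippocampal RNA of 14 mice (7 labelled LPAR2-/-, 7 WT) was depleted of ribosomal RNA and sequenced, as the methods state. The authors trimmed the reads with cutadapt 1.18, used STAR to align them (mm10), and made counts per gene over exons of the reverse strand with featureCounts 1.6.3. The deposited counts are raw. A deposited table of normalized values had lost its decimal points and was not used here.

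Counts were tested in R 4.3.3 with edgeR 4.0.16 (TMM, filterByExpr, robust quasi-likelihood F test, Benjamini-Hochberg adjustment over 14897 genes, threshold 0.05), tested first on simulated data. SE is the log2 fold change divided by the square root of F. Correlations used log2 CPM with a prior count of 2. DESeq2 1.42.0 and limma 3.58.1 (log2 of normalized counts + 1) were alternatives, with other scalings, filters of none or 10 counts in every library, the mouse number as block, and leaving out each mouse. Pairs of libraries differed beyond counting noise. Precision is set by 7 mice per genotype, and by at least 104 counts per mouse for every isomerase. No label names a batch. Promoter windows came from RefSeq (GRCm38.p6), with entries for 9 of 10 isomerases (none for Erp29).

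The members and lists were chosen with earlier results of these data known. Named were all 10 members, all genes of the other lists past the threshold (the smallest p where there was none), Hspa5, Canx, Calr, Ero1a and P4ha1, the 3 genes most like each called member, and Lpar2. Outside this rule, Tapbp, P4ha2, P4ha3, Ero1lb, Prdx4, Lum, Atf6, Ern1, Eif2ak3 and Atf4 were named after their values had been seen. Creld2, Derl3, Dnajc3 and Syvn1 were named for their promoter letters. The marker lists of CA1 and CA3 neurons, endothelium, pericytes, striatum, thalamus and blood held no called gene.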

Additional observations from a re-analysis of the deposited data

Results flagged for a closer look

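The levels of 25 genes (the isomerases, the called genes of the other lists, Ero1l and Lpar2) were examined in each genotype for a single mouse far from the others. Of these 50 groups of 7 mice, 6 held such a mouse by Dixon's criterion (the gap to the nearest mouse divided by the range above 0.568), where chance gives about 1 in 20. In 5 of the 6 it was LPAR2-/- mouse 3, always the highest of its genotype. It had 143 CPM of Pdia6 (nearest mouse 116), 435 CPM of Canx (nearest 387), 463 CPM of Calr (nearest 386), 485 CPM of Hsp90b1 (nearest 395) and 162 CPM of Hyou1 (nearest 140). This mouse also had the highest oligodendrocyte marker sum (3878 CPM), whose part in these values was not tested. Without it the log2 fold changes were −0.65 for Pdia6, −0.25 for Canx, −0.51 for Calr, −0.55 for Hsp90b1 and −0.36 for Hyou1, and all 5 passed the edgeR test. The sixth was Xbp1 in LPAR2-/- mouse 4, the lowest of its genotype at 54.0 CPM (nearest 64.1). Without that mouse the log2 fold change of Xbp1 was −0.49 (edgeR adjusted p = 0.0464).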

How the results depend on the processing

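DESeq2, DESeq2 size factors, upper quartile scaling, limma, no filter on low counts and 10 counts in every library all called the same 3 isomerases lower and none higher. Upper quartile scaling made 62.0% of all called genes higher, against 49.0%. Leaving out each mouse gave 2 to 3 isomerases called, 8 to 18 list genes and 567 to 1385 of all genes. The call lost was that of Pdia4, and the counts of list genes and of all genes were lowest without WT mouse 2 and highest without WT mouse 1. Genes called also moved by over 1.5 times without LPAR2-/- mouse 1 (611) and WT mice 4 (669), 5 (596) and 6 (654). When mouse number entered as a replicate block, 586 genes and 1 isomerase (Pdia6) passed, Pdia3 having −0.33 (edgeR adjusted p = 0.0589) and Pdia4 −0.53 (0.0645). The calls of Uggt1 (−0.19, 0.0511), Selm (0.22, 0.0707), Xbp1 (−0.51, 0.0799) and Atf3 (−0.82, 0.109) ended too, with fold changes close to those without the block. Same-numbered mice deviated together in 3 of 7 pairs (r above 0.1), with r from −0.33 to 0.31. Whether same-numbered mice were handled together is not given by the labels and was not tested. The choroid plexus covariate gave 577 genes, 1 isomerase and 8 list genes, the meningeal covariate 638 genes. The cause was not tested.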
